A study of Homo sapiens with 6 samples.

Results

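Cadherin genes were examined in a human breast cancer line with mesenchymal features, MDA-MB-231, whose cells carried either a control short hairpin (shNT) or a hairpin against GPR81 (shGPR81), the lactate receptor encoded by HCAR1. The 10 genes were CDH1, CDH2, CDH3, CDH4, CDH5, CDH6, CDH11, CDH13, CDH24 and CDH26, taken by symbol from the 26255 symbols of the expression table. CDH11 was selected on its FPKM difference between these same libraries, and the other genes were added as its relatives with earlier results in view, so the differences of the 10 genes between groups are given as a description. Calls from the fit over all genes and intervals of read counts are printed for them as values, and neither is a test of these genes. Each group had 3 libraries of polyadenylated RNA, and all cells had been infected with lentivirus, selected with puromycin and kept as stable lines. More than 1 shGPR81 line was made in the study, each with its own hairpin, and the labels do not say which one was sequenced. Nothing states that the libraries of a group came from separate cultures, so the p-values below measure the spread between these libraries, which may be technical.

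Classical cadherins are calcium-dependent adhesion proteins that bind the same or a related cadherin on the neighboring cell and connect through catenins to actin. Type I members include E-cadherin (CDH1), the main cadherin of epithelia, N-cadherin (CDH2), P-cadherin (CDH3) and R-cadherin (CDH4). Type II members include VE-cadherin of endothelium (CDH5), K-cadherin (CDH6), the osteoblast and mesenchymal cadherin-11 (CDH11) and CDH24. T-cadherin (CDH13) differs in that it has no cytoplasmic tail and is held in the membrane by a lipid anchor, so it is not a classical cadherin in the strict sense, and CDH26 also stands outside types I and II. Loss of E-cadherin, often with gain of N-cadherin or cadherin-11, is a known mark of epithelial-mesenchymal transition in carcinoma.

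Values are FPKM, fragments scaled to transcript length and to the size of the library. Read totals do not accompany the values, but the steps between low values point to about 12056676 to 12909089 reads per library, with shGPR81 libraries 1.06 to 1.07 times as deep as shNT replicate 1. The targeted gene HCAR1 was at 0.968, 1.02 and 1.36 FPKM in shNT and at 0.978, 0.891 and 0.396 FPKM in shGPR81. Its groups overlapped, and limma gave a difference of -0.57 on the log2 scale with an adjusted p of 0.38 (SE 0.31). By reads, which cover counting error only, the HCAR1 ratio was 0.677 (95% interval 0.513 to 0.892), and replicate 3 was the lowest of the shGPR81 libraries. The paper reports lower GPR81 in its shGPR81 lines by RT-qPCR and by western blotting, which are measures other than these libraries. The line's mesenchymal markers were present apart from SPARC, with a mean VIM level in shNT of 3551 ± 365 FPKM (SD, n = 3). SPARC was at a trace level, 0.106 ± 0.0199 FPKM in shNT. Epithelial markers were also read, including KRT8 at 167 ± 22.4 FPKM and EPCAM at 6.16 ± 0.861 FPKM, while ESR1, PGR, GRHL2 and OVOL1 were listed at 0 in all 6 libraries.

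CDH4 and CDH24, with CDH11 in shNT, made up nearly all of the summed FPKM of the 10 genes. CDH18, a cadherin outside the 10 genes, was read at 2.70 to 4.07 FPKM over the 6 libraries. In shNT, CDH4 contributed 69.8% to 76.3% of the summed FPKM of the 10 genes, CDH24 15.3% to 20.9% and CDH11 7.19% to 7.99%. In shGPR81 the shares were 73.6% to 74.7% for CDH4, 24.0% to 24.9% for CDH24 and 0.5996% to 0.789% for CDH11. The summed level itself was 19.9 ± 1.61 FPKM (SD, n = 3) in shNT and 14.3 ± 0.570 FPKM in shGPR81. E-cadherin and VE-cadherin (CDH1 and CDH5) were listed at 0 in every library. CDH6, CDH13 and CDH26 each had a value above 0 in 1 library only. A value of 0 in this table was not read as absence of the RNA.

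CDH11 was the member with the largest difference. It was at 1.44, 1.57 and 1.51 FPKM in the shNT libraries and at 0.0822, 0.114 and 0.0936 FPKM in the shGPR81 libraries. The groups lay far apart, and within each group the libraries lay close together. The means were 1.51 ± 0.0632 FPKM (SD, n = 3) and 0.0967 ± 0.0164 FPKM, so the level was 15.6-fold lower in shGPR81. On the scale of log2(FPKM + 0.1) the difference was -3.03 (SE 0.18), which understates the fold of so low a value. It ranked 12 by size among the 228 genes called lower. In GRCh37 the CDH11 gene spans 64977656 to 65160015 of chromosome 16, minus strand.

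Whole reads could not be recovered for CDH11 over all 6 libraries. Under a looser limit on chance agreement, its shGPR81 values alone were whole multiples of 1 step. If that step is 1 read, they stood for 8, 11 and 9 reads. Divided by the same step, the shNT values came to 131, 146 and 137.2, the last of them not whole. With rounding this gives 28 reads in shGPR81 against 414 in shNT, a ratio of 0.0642 after correction for the library scale. Its 95% Clopper-Pearson interval of 0.0422 to 0.0942 describes counting error only and does not allow for the choice of the gene. CDH11 was thus still read in each shGPR81 library.

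CDH4 was the most abundant of the 10 genes in all 6 libraries. R-cadherin is best known from retina, nerve and kidney. Its level was 12.6, 15.4 and 16.02 FPKM in shNT and 10.1, 10.7 and 11.1 FPKM in shGPR81. The shNT libraries spread more widely than the shGPR81 libraries, and the groups did not overlap. The means were 14.7 ± 1.82 FPKM (SD, n = 3) and 10.6 ± 0.477 FPKM, which is 27.6% lower in shGPR81. The log2 fold change was -0.45 (SE 0.10), below the fold change of 1.5 that a call requires. CDH4 lies on chromosome 20 from 59827317 to 60515673 on the plus strand. Noncoding RNAs are annotated within it on the opposite strand, and since it is not stated whether reads were counted by strand, reads from these cannot be told from CDH4 reads.

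CDH24 had nearly equal means in the groups, 3.48 ± 0.277 FPKM (SD, n = 3) in shNT and 3.50 ± 0.144 FPKM in shGPR81. This type II cadherin was at 3.77, 3.44 and 3.22 FPKM in shNT and at 3.34, 3.61 and 3.56 FPKM in shGPR81. The 3 shGPR81 values fell inside the shNT range, and the log2 fold change was 0.01 (SE 0.10). CDH24 lies on chromosome 14 from 23516271 to 23526747 on the minus strand.

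The other type I cadherins were read at a trace level. CDH3 was at 0.107, 0.174 and 0.125 FPKM in shNT and at 0.116, 0.0674 and 0.0674 FPKM in shGPR81, which stood for 6, 10 and 7 reads and for 7, 4 and 4 reads. The groups overlapped, and the ratio of reads was 0.619 with a counting interval of 0.301 to 1.24. CDH2, the N-cadherin gene, was at 0.0795, 0.0582 and 0.119 FPKM in shNT and at 0.0557, 0.0376 and 0.0376 FPKM in shGPR81, below the filter on low values. Its lowest shNT value was just above its highest shGPR81 value, and these rest on 4, 3 and 6 reads against 3, 2 and 2 reads. The ratio of reads for CDH2 was 0.511 (counting interval 0.173 to 1.38), a wide range at so few reads.

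Traces of the remaining members were single values. In shGPR81 replicate 1, CDH6 stood at 0.00809 FPKM, and it was listed at 0 elsewhere. CDH13 and CDH26 were listed at 0.0201 and 0.0243 FPKM in shNT replicate 1 and at 0 elsewhere. These values are too low to set the groups apart.

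**Figure D1:**
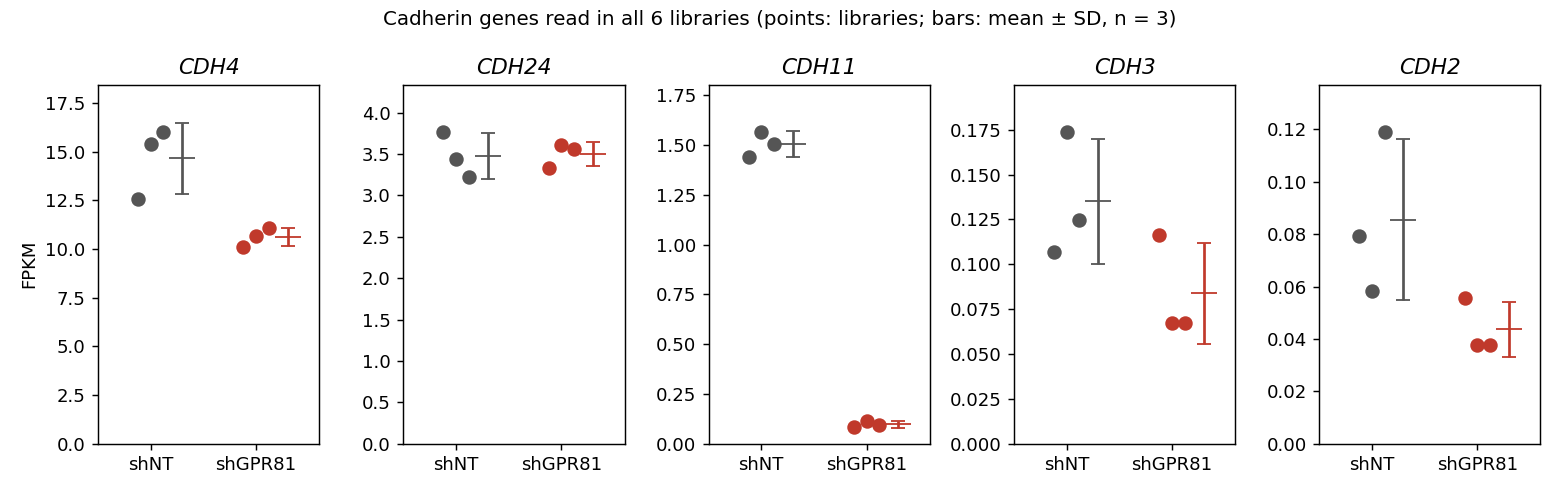
FPKM of the 5 cadherin genes with a value above 0 in all 6 libraries, on a linear axis from 0 for each gene. Points are libraries and bars are the mean ± SD (n = 3). CDH11 falls from 1.51 to 0.0967 FPKM between the groups, CDH4 is lower without overlap, CDH24 lies at the same level, and CDH3 and CDH2 lie at a trace level.

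Of the 10 genes, 4 passed the filter of 0.1 FPKM in at least 3 libraries (CDH3, CDH4, CDH11 and CDH24) and 6 did not. A call needed a fold change above 1.5 beside an adjusted p under 0.05 (limma). CDH11, which passed the filter through its shNT libraries and 1 shGPR81 library, was the 1 member called lower, where 1.59% of the 14349 genes tested were called lower. None was called higher, where 0.955% of tested genes were. CDH11 and CDH4 had shGPR81 values that all lay below the shNT values, a pattern held by 12.7% of tested genes, and no tested member had groups apart in the other direction, as 12.9% of tested genes did. Since the members were chosen with this contrast known, nothing is read from these counts.

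By group means the order of levels was the same in both groups, but the gaps on either side of CDH11 differed. The order ran CDH4, CDH24, CDH11, CDH3, CDH2. In shNT the values of CDH4, CDH24 and CDH11 did not overlap. CDH4 was 3.34 to 4.98 times CDH24 within an shNT library, CDH24 was 2.13 to 2.62 times CDH11, and CDH11 was 9.02 to 13.5 times CDH3. CDH3 and CDH2 overlapped in shNT. In shGPR81, CDH4 was still 2.96 to 3.11 times CDH24, but CDH24 was 31.5 to 40.6 times CDH11. CDH11 there overlapped with CDH3, at 0.706 to 1.70 times its level, so these neighbors in the order did not differ beyond their spread. CDH3 was 1.79 to 2.09 times CDH2 there, without overlap. These values rest on 7, 4 and 4 reads for CDH3 and on 3, 2 and 2 reads for CDH2, so no order is read from them.

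The genes around CDH11 and CDH4 were examined next. CDH11 lies in a stretch of chromosome 16 with few genes. The nearest genes whose mean reached 1 FPKM were GOT2, 6.21 Mb before it, and TK2, 1.38 Mb after it. Over the 5 such genes on either side the log2 fold changes were between -0.22 (SETD6) and 0.20 (CMTM1), with a median of -0.09. Limma called 0 of these 10 genes, and 1 had an unadjusted p under 0.05. Such p-values were common over all tested genes, since PPP1R3D beside CDH4, at 0.0496, had an adjusted p of 0.256 (limma). Counts of them, here and below, are given without the share over all genes, and nothing is read from them. The median log2 fold change of all 596 tested genes of chromosome 16 was 0.00.

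CDH4 had neighbors that were lower by about as much as itself. All 10 flanking genes were lower in shGPR81, by log2 fold changes of -0.46 to -0.24 (median -0.34). Of all 14349 tested genes 48.1% were lower. An adjusted p under 0.05 was found for 6 of the 10 flanking genes (limma). That count is given without its share over all genes, and nothing is read from it. No flanking gene reached a fold change of 1.5, and 9 had an unadjusted p under 0.05. TAF4, 0.0129 Mb after CDH4 and a subunit of the general transcription factor TFIID, averaged 9.27 ± 0.361 FPKM in shNT (SD, n = 3) and 7.35 ± 0.296 FPKM in shGPR81. PSMA7, a proteasome subunit gene, went from 456 ± 25.7 to 332 ± 7.14 FPKM, with an adjusted p of 0.0047 from limma (log2 difference -0.46, SE 0.06). Over the 388 tested genes of chromosome 20 the median log2 fold change was -0.39. Of these genes 353 were lower, where the share over all tested genes was 48.1%. When each library was centered on the median of each chromosome, the log2 fold change of CDH4 was -0.05 (SE 0.09) and that of CDH11 was -3.04 (SE 0.20). The lower level of CDH4 and that of its chromosome cannot be told apart in these libraries, and the cause of either was not tested.

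**Figure D2:**
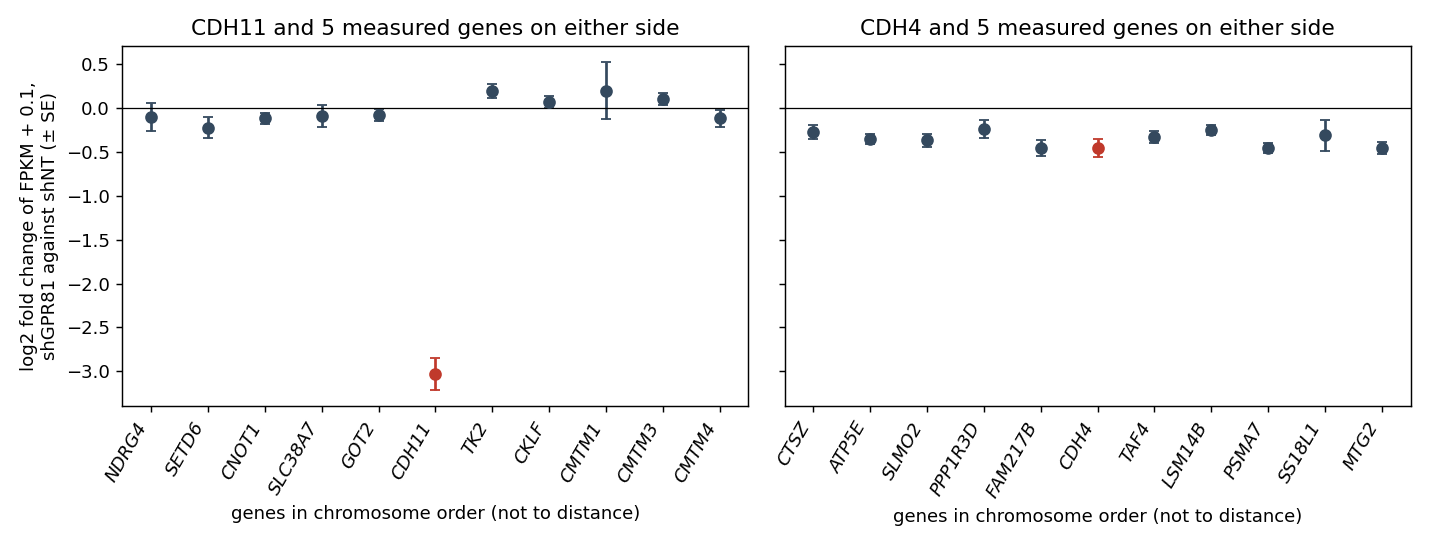
Log2 fold change of FPKM + 0.1 (shGPR81 against shNT, ± SE from limma) for CDH11, for CDH4 (red) and for the 5 genes on either side whose mean reached 1 FPKM, in chromosome order. CDH11 stands at -3.03 among flanking genes between -0.22 and 0.20, while CDH4 stands at -0.45 among flanking genes that are all between -0.46 and -0.24.

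Promoter sequences are shown for CDH4, the most abundant member, beside CDH2 and CDH26, which were at a trace level or at 0 and whose promoters could be matched by symbol. Each runs from 250 bases before to 50 bases after a RefSeq start, in GRCh38.p14 coordinates, and capitals mark CG dinucleotides, the bases at which promoters can be methylated. CDH4 has entries for 2 starts, both inside the gene and far downstream of its annotated first base. The promoter at that base is not shown. For CDH2 and CDH26, each also with 2 starts, the more upstream one is printed.

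CDH4, chr20:61499171-61499470, plus strand: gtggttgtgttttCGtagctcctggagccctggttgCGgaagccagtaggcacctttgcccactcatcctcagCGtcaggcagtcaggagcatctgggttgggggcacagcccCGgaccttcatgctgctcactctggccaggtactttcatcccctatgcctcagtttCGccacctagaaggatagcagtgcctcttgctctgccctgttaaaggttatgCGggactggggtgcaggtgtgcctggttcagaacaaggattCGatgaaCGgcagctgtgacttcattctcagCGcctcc

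CDH4, chr20:61599511-61599810, plus strand: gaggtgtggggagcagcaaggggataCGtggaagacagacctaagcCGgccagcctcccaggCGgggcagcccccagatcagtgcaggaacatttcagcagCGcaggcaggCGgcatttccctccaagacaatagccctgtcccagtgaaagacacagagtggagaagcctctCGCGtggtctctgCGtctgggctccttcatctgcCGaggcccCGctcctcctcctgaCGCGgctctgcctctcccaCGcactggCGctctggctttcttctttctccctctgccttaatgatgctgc

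CDH2, chr18:28177081-28177380, minus strand: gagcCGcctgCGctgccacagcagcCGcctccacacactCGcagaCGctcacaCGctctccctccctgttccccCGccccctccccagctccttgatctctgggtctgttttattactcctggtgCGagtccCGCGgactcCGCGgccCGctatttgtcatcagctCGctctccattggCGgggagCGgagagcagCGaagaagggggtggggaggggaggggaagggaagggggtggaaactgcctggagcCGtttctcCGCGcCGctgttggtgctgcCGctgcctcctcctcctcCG

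CDH26, chr20:59958173-59958472, plus strand: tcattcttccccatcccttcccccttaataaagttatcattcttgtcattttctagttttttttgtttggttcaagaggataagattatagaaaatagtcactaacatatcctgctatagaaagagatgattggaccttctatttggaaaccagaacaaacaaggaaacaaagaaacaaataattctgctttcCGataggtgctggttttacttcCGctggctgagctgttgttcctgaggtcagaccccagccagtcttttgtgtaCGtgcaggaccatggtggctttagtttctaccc

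Of the windows at these 2 internal CDH4 starts, the more upstream holds 9 CG dinucleotides and the other 14. The median was 14 over 35116 promoters of this length. CDH2, read here at a trace level, holds 23 in the promoter shown, and CDH26 holds 3. The E-box CAGGTG (or CACCTG on the other strand) is the word that Snail and ZEB repressors are known to bind. It occurs 1 time in the more upstream of these CDH4 windows and in 0 of the other promoters shown. Of all promoters 20.6% hold it. The word TGACG (or CGTCA on the other strand), the core of the cAMP response element and searched because GPR81 is known to lower cAMP, occurs 1 time in each CDH4 promoter, 0 times in the CDH2 and CDH26 promoters shown and 2 times in the promoter of the downstream CDH2 start at chr18:28036592-28036891, where 24.6% of all promoters hold it. Such matches describe these windows only, and methylation was not measured.

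Other classical cadherins outside the 10 genes added 1 expressed gene. Of CDH7, CDH8, CDH9, CDH10, CDH12, CDH15, CDH18, CDH19, CDH20 and CDH22, 1 passed the filter. CDH18, a type II cadherin, was at 3.09, 2.70 and 3.17 FPKM in shNT and at 3.34, 4.07 and 3.10 FPKM in shGPR81. The groups overlapped, and limma gave an adjusted p of 0.43 for a log2 difference of 0.22 (SE 0.13). CDH18 was thus above CDH11 in every library and at 2.99 ± 0.249 FPKM (SD, n = 3) in shNT beside 3.48 FPKM for CDH24. CDH12 and CDH20, the next by level, had shNT means of 0.0693 ± 0.0165 and 0.0636 ± 0.0320 FPKM (SD, n = 3).

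Catenins and other partners of the cadherin tail ranged from abundant to not read, and none of those tested was called (limma). Over all tested genes 1.59% were called lower and 0.955% higher. At such low shares nothing is read from the counts of calls in this list or in those below. CTNNA2 and CTNNA3, alpha-catenins of other tissues, were listed at 0 in all 6 libraries, and CTNND2 had a value in 1 library. Of 12 genes of tail partners 9 were tested, with a median log2 fold change of 0.04 beside 0.01 over all tested genes. An unadjusted p under 0.05 was found for 3 of them, and as above nothing is read from such counts, here or below. CTNNA1, the alpha-catenin that reaches actin, averaged 214 ± 7.02 FPKM in shNT (SD, n = 3) and 233 ± 5.85 FPKM in shGPR81. CTNNAL1, an alpha-catenin relative, and VCL, which encodes the actin linker vinculin, were the next by level with CTNNB1. Beta-catenin (CTNNB1) was at 91.9 ± 1.76 and 94.2 ± 2.11 FPKM, with overlapping groups. JUP, the plaque protein plakoglobin, averaged 8.45 ± 1.68 and 5.65 ± 0.374 FPKM, with an adjusted p of 0.0872 from limma (log2 difference -0.55, SE 0.15). CTNNB1 and JUP, and also ADAM15, SNAI1, EPCAM and SPARC, were chosen after their values were seen.

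Other adherens junction genes, among them the nectins and afadin (MLLT4), gave 0 calls among 15 tested genes (limma). The shares called over all tested genes were 1.59% lower and 0.955% higher. This list had a median log2 fold change of -0.05 and 4 genes at an unadjusted p under 0.05. The highest were the actin cross-linkers ACTN4 and ACTN1 and the scaffold IQGAP1, at log2 fold changes of 0.16, -0.07 and 0.01. Proteases that mature or shed cadherins gave 0 calls among 13 tested genes, with a median of -0.0027 and 2 genes at an unadjusted p under 0.05. One of these passed on adjusted p but not on fold change. This was ADAM15, a membrane protease known to cleave E-cadherin, which averaged 34.5 ± 3.39 FPKM in shNT (SD, n = 3) and 46.2 ± 2.21 FPKM in shGPR81 (log2 fold change 0.42, SE 0.08, adjusted p = 0.027, limma). NCSTN, APH1A and PSENEN, subunits of gamma-secretase and the highest of the list, were at log2 fold changes of -0.05, 0.05 and 0.01.

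Desmosomes and the wider cadherin superfamily were measured for comparison. Beside their counts of calls stand the shares over all tested genes, 1.59% called lower and 0.955% called higher (limma). Desmosomal genes had 5 of 11 tested and 0 called, with a median of 0.05 and 2 at an unadjusted p under 0.05. Desmoglein 2 (DSG2) led them with 30.9 ± 2.83 FPKM in shNT (SD, n = 3) and 32.7 ± 2.11 FPKM in shGPR81, followed by DSP and PKP2. FAT, dachsous, flamingo and related genes had 7 of 19 tested, 0 called, a median of -0.07 and 1 at an unadjusted p under 0.05, with CLSTN1, FAT1 and CELSR1 as the highest. Protocadherins outside the gene clusters had 4 of 12 tested, a median of 0.38, 1 called lower and 0 called higher, with 3 at an unadjusted p under 0.05. The gene called was PCDH19, an adhesion protein of the nervous system. It was at 0.220, 0.173 and 0.162 FPKM in shNT and was listed at 0 in the 3 shGPR81 libraries (adjusted p = 0.0326, limma). PCDH19 passed the filter through the shNT libraries alone, so the filter itself required it to be present there, and no fold is given against values of 0. It was called in none of the 6 fits that left out 1 library, which gave adjusted p-values of 0.0787 to 0.11 (limma). PCDH1, PCDH7 and PCDH9, the highest of that list, were at log2 fold changes of 0.44, 0.32 and 0.56, none of them called.

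**Figure D3:**
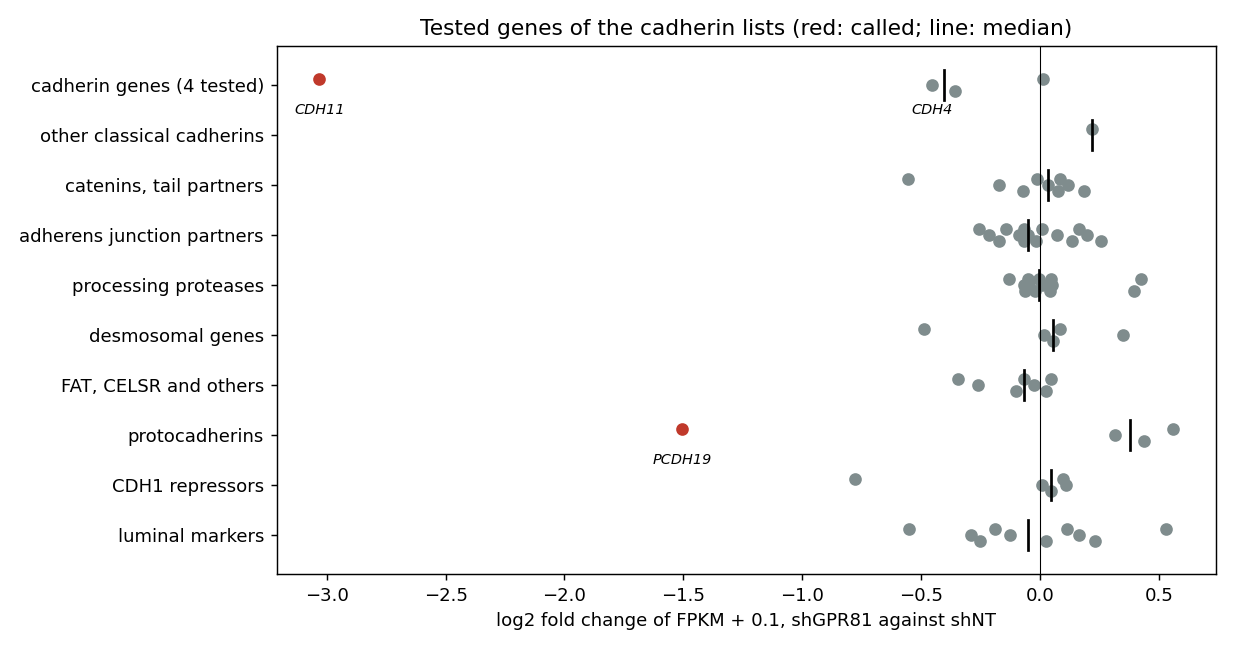
Log2 fold change of FPKM + 0.1 (shGPR81 against shNT) of every tested gene in the cadherin lists. Each point is a gene, red points are called and black lines are list medians. The red points are CDH11, which was chosen on this difference, and PCDH19. The place of PCDH19 depends on the pseudocount because it is listed at 0 in shGPR81. The medians of the catenin, junction, protease, desmosome, repressor and luminal lists lie between -0.05 and 0.05. Those of the other lists outside the 10 genes are -0.07 (FAT, CELSR and others), 0.22 (other classical cadherins, 1 gene tested) and 0.38 (protocadherins).

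Known repressors of CDH1 were at log2 fold changes near 0 apart from SNAI1. Of 11 genes 5 were tested and 0 called (limma), with a median of 0.04 and 1 at an unadjusted p under 0.05. Among all tested genes 1.59% were called lower and 0.955% higher. ZEB1 averaged 17.4 ± 0.754 FPKM in shNT (SD, n = 3) and 18.6 ± 0.568 FPKM in shGPR81, and TCF3 and SNAI2 were the other high members. SNAI1, itself on chromosome 20, was at 4.57 ± 1.02 and 2.60 ± 0.411 FPKM. Limma gave SNAI1 an adjusted p of 0.0646 at a log2 difference of -0.78 (SE 0.19). It was called lower with the replicate number as a block (adjusted p = 0.0182, limma) and without shNT replicate 1 (adjusted p = 0.0157, limma), while centering on chromosomes gave -0.38 (SE 0.18). CDH1 itself was listed at 0 in both groups.

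Marker lists of other cell types had 0 genes called, where 1.59% of all tested genes were called lower and 0.955% higher. Nothing is read from these counts, and the part of other cell types in the CDH11 difference was not tested. The luminal epithelial list had 10 of 15 genes tested and 0 called (limma), with a median of -0.05 and 2 at an unadjusted p under 0.05. Its summed level was 455 to 581 FPKM in shNT and 482 to 555 FPKM in shGPR81. Its 3 highest genes, all keratins, had different signs. KRT18 and KRT8 had log2 differences of -0.19 and -0.25 (adjusted p = 0.353 and 0.246, limma). KRT19 averaged 78.1 ± 11.8 and 112 ± 9.60 FPKM (SD, n = 3), with an adjusted p of 0.045 (limma) and a fold change below 1.5. In the endothelial list 3 of 7 genes were tested and 0 called, with 1 at an unadjusted p under 0.05 and a sum of 50.8 to 62.0 FPKM in shNT and 61.7 to 68.0 FPKM in shGPR81, nearly all of it from ESAM, with KDR and TIE1 below 1 FPKM. In the osteoblast and fibroblast list 3 of 9 genes were tested and 0 called, with 1 at an unadjusted p under 0.05, a sum of 9.21 to 10.7 FPKM in shNT and 8.06 to 10.2 FPKM in shGPR81, and SP7, IBSP, COL1A2, LUM and DCN listed at 0. RUNX2, COL1A1 and BGLAP led that list, at log2 differences of -0.03 (SE 0.12), -0.65 (SE 0.19) and 0.38 (SE 1.03). BGLAP was listed at 0 in shNT replicate 1 and in shGPR81 replicate 3, so its sign is not read. In the list of mesenchymal breast line markers 6 of 7 genes were tested and 0 called, with 2 at an unadjusted p under 0.05 and a sum of 4044 to 4861 FPKM in shNT and 4854 to 5424 FPKM in shGPR81. Beside VIM (log2 difference 0.22) its highest genes were MSN, at 0.30 with an adjusted p of 0.0378 (limma) and a fold change below 1.5, and CAV1, at -0.07. Fewer cells with CDH11 and less CDH11 RNA per cell cannot be told apart in RNA from whole cultures.

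The genes with the most similar pattern to CDH11 over the 6 libraries were sought among 11677 tested genes whose mean reached 1 FPKM. The measure was the root mean square difference between values of log2(FPKM + 0.1), each centered on its own mean. TMEM98, a membrane protein gene on chromosome 17, was nearest at 0.247. Its level was 7.44, 8.07 and 7.35 FPKM in shNT and 0.554, 0.734 and 1.08 FPKM in shGPR81. AMPH, which encodes amphiphysin of endocytosis at nerve endings, followed at 0.297, GABBR2, a subunit of the GABA-B receptor, at 0.302 and the trefoil factor gene TFF3 at 0.331. CADM1, an immunoglobulin adhesion molecule, came next at 0.343 and averaged 1.77 ± 0.210 FPKM in shNT (SD, n = 3) and 0.248 ± 0.0194 FPKM in shGPR81. The 5 genes lie on 5 different chromosomes, and none is on chromosome 16 with CDH11. They were found by their likeness to a gene with this difference, so their lower level in shGPR81 is part of the selection.

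**Figure D4:**
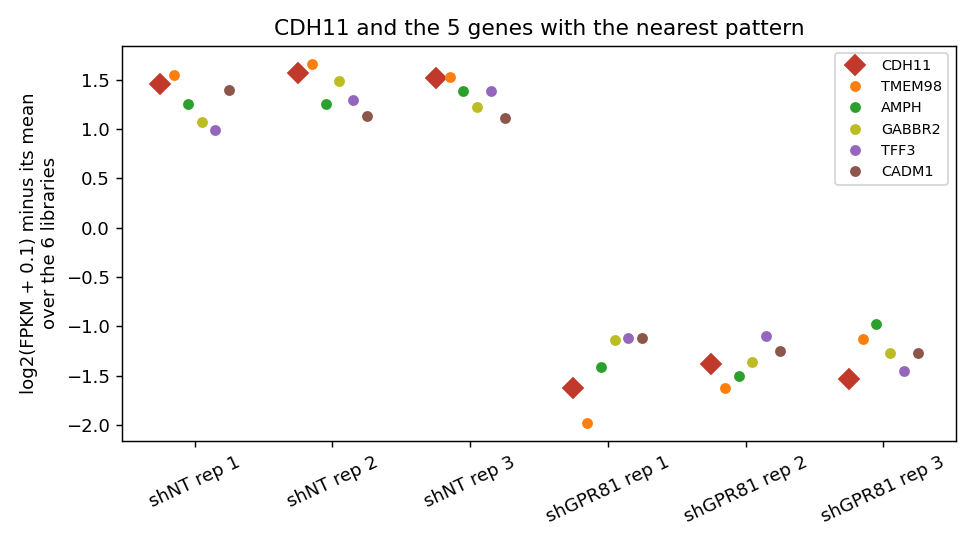
Values of log2(FPKM + 0.1), centered on each gene's mean over the 6 libraries, for CDH11 (red diamonds) and the 5 genes with the smallest root mean square difference from it. All 6 genes lie above 0 in the 3 shNT libraries and below 0 in the 3 shGPR81 libraries, with differences from CDH11 of 0.247 to 0.343.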

How the data were processed

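Total RNA of MDA-MB-231 cells was made into 6 TruSeq stranded mRNA libraries and read as single-end reads of 75 bases. According to the paper's methods, the authors mapped reads to hg19 with TopHat, Bowtie 2 and SAMtools. The GEO design text names mm10 instead, but the symbols are human. Cuffnorm 2.2.1 is in the submitters' processing notes, and the annotation and counting settings are not given in the sources used here. The authors deposited FPKM, 1 value per symbol and library, and of 26255 symbols 8456 are at 0 throughout. MIR6723 holds 28.1% to 36.2% of a library's summed FPKM.

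Limma 3.58.1 (lmFit, eBayes with trend; R 4.3.3) was fitted to log2(FPKM + 0.1). A gene was kept if 3 or more libraries reached 0.1 FPKM, which left 14349 genes, and p-values were adjusted by Benjamini-Hochberg. Calls required a fold change above 1.5 beside an adjusted p under 0.05. The fit and the recovery of reads were tested on simulated data. Reads were taken as the lowest set of integers proportional to the FPKM of a gene once each library's scale was removed. This worked for 5632 genes, and a common factor cannot be seen. It did not work for CDH11 over all 6 libraries. For CDH11 the step came from the shGPR81 libraries alone, a choice made after its values were seen. The limit on chance agreement was looser there than the 1e-05 used for other genes. The scale in reads per library used the longest GENCODE transcript of 3872 genes. Coordinates of genes are from GENCODE release 44 on GRCh37, matched for 23466 symbols, 1345 of them through RefSeq synonyms.

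The 10 cadherins and all gene lists were chosen with earlier results of these data known. The text names these 10 genes, the genes called and the 3 highest of each other list, the 5 genes most like CDH11, and HCAR1. Flanking genes, promoters and other genes marked in the text were chosen after the values were seen. Alternatives were leaving out each library, a replicate block, other pseudocounts and filters, median, quantile and chromosome centering, and limma's treat.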

Additional observations from a re-analysis of the deposited data

How the results depend on the processing

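CDH11 was selected on its difference between these libraries, so its call under the 15 alternatives is no sign of stability. Its log2 fold change was between -3.10 and -2.98 with each library left out, -1.19 with a pseudocount of 1 and -3.84 with a pseudocount of 0.01. CDH4 stayed negative and uncalled, between -0.56 (without shNT replicate 1) and -0.39 (without shNT replicate 3), and moved to -0.05 with chromosome centering. CDH24 had either sign, between -0.04 and 0.07, and was never called, and CDH3 was negative and uncalled wherever it was tested; a filter of 1 FPKM leaves it out.

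The number of genes called lower, 228, was 142 with a pseudocount of 1, 46 under treat and 121 to 256 with each library left out, lowest without shNT replicate 2. The number called higher, 137, was 75, 9 and 65 to 152 in the same order, lowest without shGPR81 replicate 1. Leaving out shNT replicate 2 gave 121 lower and 81 higher, shGPR81 replicate 1 gave 133 and 65, shGPR81 replicate 2 gave 135 and 66, and leaving out shGPR81 replicate 3 gave 169 and 85. The 1 protocadherin called (PCDH19) became 0 with the replicate block, a pseudocount of 1, a filter of 1 FPKM, treat and each library left out (0 to 0), and 2 without a filter, PCDH20 being the second. Counts of 0 became 1 for the repressors of CDH1 (SNAI1) with the replicate block. With each library left out they were 0 to 1 for those repressors (SNAI1) and the catenins (JUP), both 1 without shNT replicate 1, and for luminal markers (KRT19, 1 without shNT replicate 3). The causes were not tested. With these exceptions, counts were within 1.5 times those given.

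Replicate numbers showed no clear pairing of the libraries, though so few libraries cannot exclude one. The deviations of same-numbered libraries from their group means correlated at 0.12, 0.02 and 0.01 across genes, and 3 of 6 libraries correlated best with their own number. With the replicate block 197 genes were called lower and 115 higher. Genes with a few reads, such as CDH2 and CDH3, allow only wide intervals.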
